A study of Mus musculus with 72 samples.

Results

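The Dlk1-Dio3 and Igf2-H19 regions are the imprinted clusters of the table whose control regions are known to carry methylation on the allele inherited from the father. Every CpG that the deposited table names Dlk1-Dio3 or Igf2-H19 was pooled into 1 region each, and both parental alleles were kept. This gave 29 CpGs for Dlk1-Dio3 and 16 CpGs for Igf2-H19, or 45 of the 224 CpGs in the table. Of the 224, 32 had no region name. They held 20639 and 1452 calls, which is 0.562% and 0.0395% of the 3671740 calls in the table. A call is the state, methylated or not, of 1 CpG on 1 read.

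In the Dlk1-Dio3 cluster the genes Dlk1, Rtl1 and Dio3 are expressed from the paternal chromosome, and the noncoding RNAs Meg3, Rian and Mirg from the maternal one. The intergenic control region (IG-DMR) is methylated in sperm, and the unmethylated maternal copy is needed for the noncoding RNAs. In the Igf2-H19 cluster the insulator protein CTCF binds the unmethylated maternal control region and keeps the enhancers from Igf2, a growth factor gene, so that they act on H19, a noncoding RNA. The methylated paternal copy does not bind CTCF, and Igf2 is expressed from it. In mouse brain both clusters are known for exceptions to this pattern: Dlk1 in neural stem cells and niche astrocytes, and Igf2 in the choroid plexus, have been found expressed from both alleles.

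Methylation was read with IMPLICON, in which bisulfite-converted DNA is amplified with primers for chosen regions and each read is given to a parental genome by its strain variants. All 8 mice were female F1 animals of reciprocal crosses between BL6, the C57BL/6 laboratory strain, and Cast, a wild-derived strain of Mus musculus castaneus. The 4 old mice were 101 weeks old with a BL6 mother and a Cast father (mice 1 and 2), or 103 weeks old with a Cast mother and a BL6 father (mice 3 and 4). The 4 young mice were 8 weeks old with a Cast mother and a BL6 father (mice 5 and 6), or 9 weeks old with a BL6 mother and a Cast father (mice 7 and 8). From each mouse the nucleus accumbens, hypothalamus, prefrontal cortex, hippocampus and cerebellum were dissected, with lung as the control organ. The tissues were homogenised whole, so a level is an average over all their cell types. The study asked whether imprinted methylation is stable in the aged brain.

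The 48 libraries held 376 to 461238 calls, with a median of 62773. The hippocampus library of mouse 3 held the 376 calls and had no call at either region. The libraries of mouse 8 were shallow: their median was 16171 calls, against medians of 55565 to 82931 for the other 7 animals. In that mouse the difference between the parental alleles was the smallest of all 8 mice in 6 of 7 maternally methylated regions. The exception was Gnas, with 58.6 points in mouse 8 and 54.1 to 78.2 points in the others. Results are therefore given with mouse 8 and, where it changes them, without it. When genome 1 of the table was read as BL6, each of the 7 maternally methylated regions had the higher level on the maternal allele in each mouse, 56 of 56 comparisons, with a median difference of 75.3 points. A point is 1 percentage point of methylation.

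On build GRCm38 the Dlk1-Dio3 CpGs lie on chromosome 12 from 109528253 to 109528471, a stretch of 219 bases. In the RefSeq table of that build this stretch lies inside Gm34081, a noncoding RNA gene, and 12.5 kb from the nearest end of Meg3. Dlk1, which encodes a transmembrane protein of the Notch ligand family, is 64.9 kb away on the other side. Dio3, which encodes the enzyme that inactivates thyroid hormone, is 751 kb away beyond Meg3. The Igf2-H19 CpGs lie on chromosome 7 from 142581761 to 142582087, a stretch of 327 bases that overlaps no gene of the table. It is 3615 bases from H19 and 68.7 kb from Igf2.

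The number of reads set the precision of every value. Reads on an allele were counted as the highest number of calls at a CpG of the region in a library, since 1 read gives at most 1 call per CpG. Dlk1-Dio3 had 425 paternal and 329 maternal reads over all libraries, and Igf2-H19 had 51 paternal and 53 maternal reads. Paternal Dlk1-Dio3 was read in 46 of 48 libraries, with a median of 7.5 and a highest count of 35 reads. Maternal Dlk1-Dio3 was read in 44 libraries, with a median of 5 and a highest count of 27. Igf2-H19 was seen in 29 libraries on the paternal and 32 on the maternal allele, with at most 4 and 6 reads. In 15 and 18 of these a single read stood for the allele. The 10 maternally methylated and control regions used for comparison had 73.5 to 1810 reads per library, with a median of 422. The other named regions, Igf2r, Mrpl10 and Muc20, were not among them. They were shallower still, with 0.417, 0.458 and 0.792 reads per library, against 2.17 at Igf2-H19 and 15.7 at Dlk1-Dio3. The 95% Wilson intervals below take reads, not calls, as their number and cover counting error only, because PCR copies of a molecule could not be told apart.

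Mean depth was higher in the old mice at both regions, with neither adjusted p below 0.05. Dlk1-Dio3 had 127.5 ± 37.2 reads per old mouse (84 to 170) and 61 ± 38 per young mouse (SD, n = 4 each; lowest 13 in mouse 8), with an exact two-sided permutation p of 0.0571. Igf2-H19 had 15.25 ± 2.63 reads per old mouse (13 to 19) and 10.75 ± 1.26 per young mouse (9 to 12), for which the exact permutation p was 0.0286, the smallest that 4 against 4 mice can give. Adjusted over the 2 regions the p was 0.0571 for both. The old and young mice overlapped at Dlk1-Dio3, through young mouse 6, and did not at Igf2-H19. Leaving out any 1 of the young mice took the unadjusted p at Igf2-H19 to 0.0571. Without mouse 8 the Dlk1-Dio3 difference was 50.5 reads in place of 66.5, with an exact permutation p of 0.114.

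**Figure D1:**
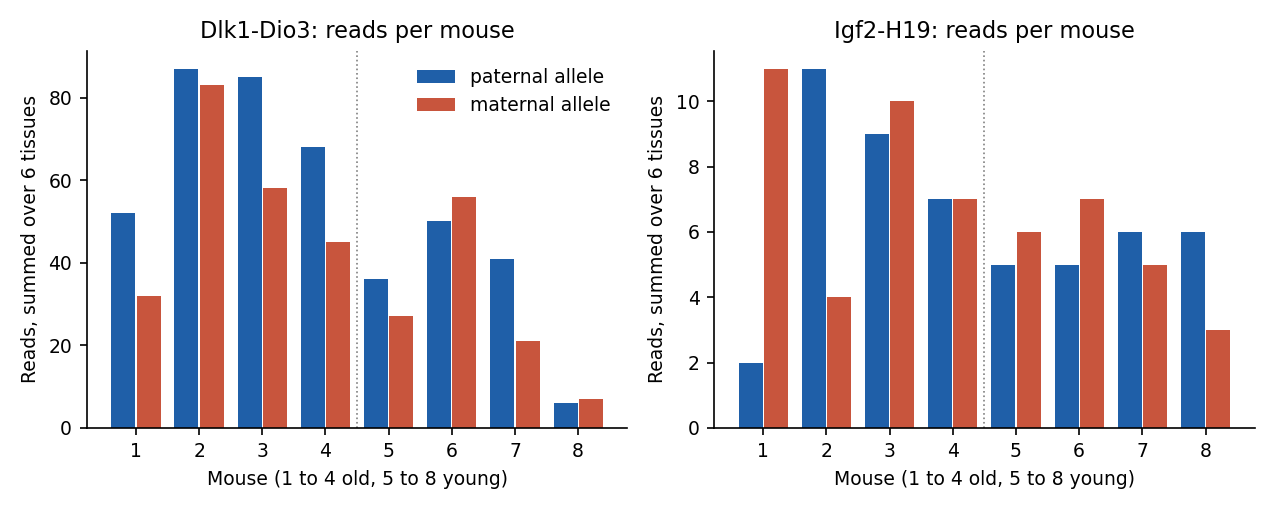
Reads per mouse, summed over 6 tissues, on the paternal (blue) and maternal (red) allele of Dlk1-Dio3 (left) and Igf2-H19 (right); mice 1 to 4 are old and 5 to 8 young. Mouse 8 had 6 paternal and 7 maternal reads at Dlk1-Dio3, and no mouse had more than 11 reads on an allele of Igf2-H19.

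The paternal allele was the more methylated one at both regions in every mouse. At Dlk1-Dio3 the paternal allele had 86.7, 92.1, 92.4 and 95.9% methylated calls in old mice 1 to 4, and 72.99, 93.7, 77.03 and 66.5% in young mice 5 to 8. The maternal allele had 12.3, 16.4, 9.83 and 11.04% in old mice 1 to 4, and 12.8, 10.7, 13.9 and 57.7% in young mice 5 to 8. Mouse 8 thus stood far above the others on the maternal allele, where it had 7 reads (95% Wilson interval 25.0 to 84.2%), and the other 7 mice lay between 9.83 and 16.4%. The paternal and maternal ranges over the 8 mice did not overlap.

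Averaged over mice, Dlk1-Dio3 had 84.7% ± 11.04 on the paternal and 18.1% ± 16.2 on the maternal allele (SD, n = 8). The difference was 66.6 ± 25.1 points, higher on the paternal allele in 8 of 8 mice. The exact two-sided sign-flip p was 0.00781, the smallest that 8 mice can give, and 0.0104 after Benjamini-Hochberg adjustment over the 12 regions tested in the table. Of these, 9 regions, or 75%, passed the threshold of 0.05 in either direction. Without mouse 8 the levels were 87.3% ± 8.90 on the paternal and 12.4% ± 2.22 on the maternal allele (n = 7), and the difference was 74.8 ± 9.84 points.

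At Igf2-H19 the paternal allele had 91.7, 59.6, 75.2 and 71.6% in old mice 1 to 4, and 92.9, 91.3, 67.1 and 27.7% in young mice 5 to 8. The maternal allele had 24.3, 18.6, 9.33 and 41.4% in old mice 1 to 4, and 45.6, 24.3, 13.6 and 0% in young mice 5 to 8. Each value rests on 2 to 11 reads, and the ranges of the alleles over mice overlapped through the paternal value of mouse 8. That value rests on 6 reads, with a Wilson interval that begins at 9.68%. The 0% on the maternal allele of mouse 8 rests on 3 reads, with an interval of 0 to 56.1%.

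The mean level of Igf2-H19 was 72.1% ± 21.9 on the paternal and 22.1% ± 15.4 on the maternal allele (SD, n = 8). The paternal level was higher in 8 of 8 mice, by 50.0 ± 16.2 points (exact sign-flip p = 0.00781, adjusted 0.0104). In the 5 mice with at least 5 reads on both alleles the difference was 52.8 points. So few mice cannot give an exact p below 0.0625, or 0.0833 after adjustment, so these mice alone could not pass. edgeR's quasi-likelihood test with the mouse as a block, run on the calls of both states, gave adjusted p of 8.07e-05 for Igf2-H19 and 0.000188 for Dlk1-Dio3. That fit counts calls, and calls on the same read are not independent. How it treats shared reads was not tested.

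**Figure D2:**
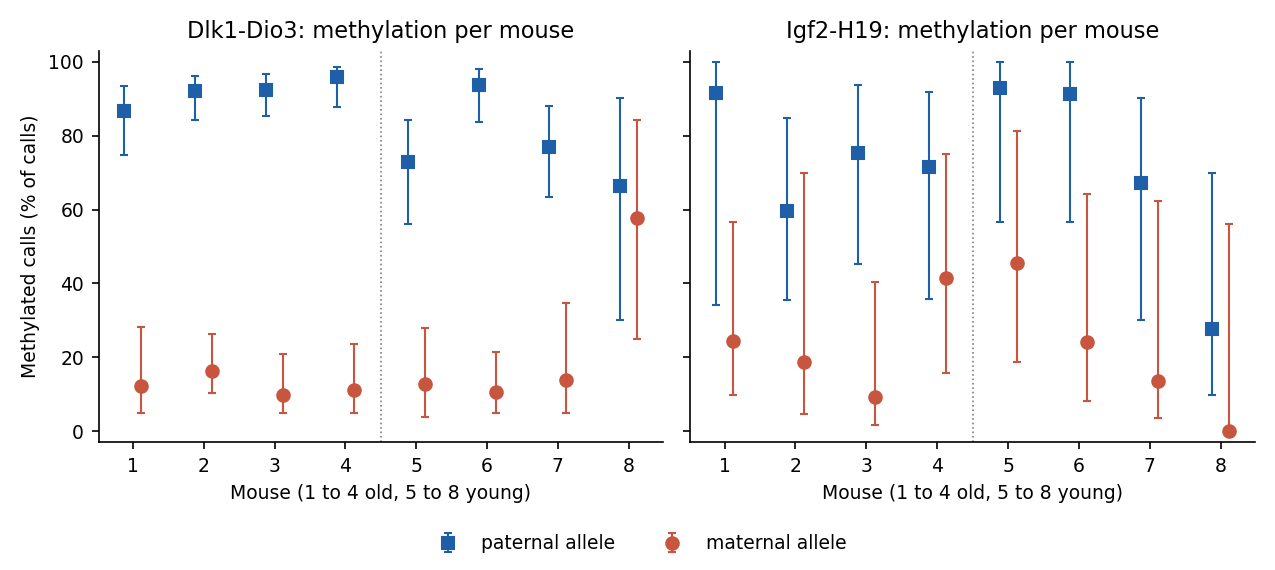
Methylated calls in percent of all calls per mouse, summed over tissues and CpGs, on the paternal (blue squares) and maternal (red circles) allele of Dlk1-Dio3 (left) and Igf2-H19 (right). Bars are 95% Wilson intervals on reads; at Dlk1-Dio3 the intervals of the alleles overlap in mouse 8 and in no other mouse.

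The parental difference was set beside that of the maternally methylated regions in the same mice, a comparison made after the levels had been seen. The paternal minus maternal difference was 66.6 points at Dlk1-Dio3 and 50.0 points at Igf2-H19, against a mean of maternal minus paternal over the 7 regions of 71.3 ± 12.0 points (SD, n = 8 mice). The difference at Dlk1-Dio3 was lower than that mean by 4.70 ± 14.1 points, in 5 of 8 mice, with an exact sign-flip p of 0.445 (adjusted over both regions 0.445). Without mouse 8 it was lower by 0.392 ± 7.76 points. The difference at Igf2-H19 was lower than the mean by 21.3 ± 12.2 points, in 8 of 8 mice, with an exact sign-flip p of 0.00781 (adjusted 0.0156). Without mouse 8 it was lower by 22.1 ± 12.9 points in 7 of 7 mice, with an exact p of 0.0156 (adjusted 0.0313). This held against the mean, and the 7 regions differed among themselves. Their mean paternal minus maternal difference ran from -84.8 points at Commd1 to -57.1 at Snrpn and -55.4 at Mest. Snrpn and Mest also had the fewest reads of the 7, with 73.5 and 168.5 per library. In size, Igf2-H19 was above Mest in mice 6 to 8 and below it in mice 1 to 5. It was above Snrpn in mouse 3 and below it in the other mice. The part of read depth in the lower Igf2-H19 difference was not tested.

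Along Dlk1-Dio3 the paternal allele was evenly methylated and the maternal allele less so. The 27 CpGs read on nearly all molecules had 85.2 to 91.0% on the paternal allele, with a median of 88.9% and 397 to 425 calls each. On the maternal allele they had 7.60 to 27.96%, with a median of 12.8% and 322 to 329 calls. The lowest was CpG 6, counted from the lower coordinate, 53 bases from the first CpG, with 25 methylated of 329 calls. The highest was CpG 2, 4 bases from the first, with 92 methylated of 329 calls (95% Wilson interval 23.4 to 33.05%). The CpGs on either side of it, 1 and 3, had 17.6% and 17.3%.

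CpG 2 was singled out after its value was seen. Its maternal level was 18.8, 37.3, 22.4 and 26.7% in old mice 1 to 4, and 25.9, 21.4, 33.3 and 57.1% in young mice 5 to 8. The median CpG of the same allele had 12.5, 15.7, 8.62 and 9.09% in the old mice, and 14.8, 10.7, 14.3 and 57.1% in the young mice. CpG 2 was thus the highest of the 27 CpGs in 5 of 8 mice, shared the highest level in mouse 5, and was above the median in 7 of 8. On the paternal allele the same CpG did not stand apart, within the 85.2 to 91.0% of the 27 CpGs.

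Each CpG was also compared between the alleles over mice. At Dlk1-Dio3, 28 of 28 testable CpGs passed in the paternal direction (exact sign-flip test, adjusted p 0.0116 to 0.0218 over the 180 CpGs tested in the table), against 73.3% of all CpGs in either direction. Their differences ran from 55.3 to 73.4 points, and in 21 of the 28 the paternal level was higher in all mice. Without mouse 8 this held in 28 of 28. The remaining CpG, number 28, had 39 paternal and 11 maternal calls, with 82.1% and 18.2%. These CpGs share reads and are not independent.

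At Igf2-H19 the CpGs had 51.6 to 76% on the paternal and 9.68 to 28.3% on the maternal allele. CpG 4, 34 bases from the first, was the lowest on both alleles, with 16 methylated of 31 paternal and 3 methylated of 31 maternal calls. CpGs 10 to 14 had the highest maternal level, 15 methylated of 53 calls each. Between the alleles 14 of 16 CpGs passed, against 73.3% of all CpGs in either direction, with differences of 26.4 to 58.7 points over the 16. CpGs 6 and 7 did not pass (exact sign-flip test, adjusted p 0.0821 and 0.308). The paternal level was higher in 5 of 6 mice at CpG 6 and in 3 of 6 at CpG 7, where the difference was 26.4 ± 43.6 points. Here too the CpGs share reads and are not independent. With at least 5 calls per mouse and allele, 9 CpGs had values in 5 mice, too few to pass, and 0 passed (exact p 0.0625, adjusted 0.0822), with differences of 44.7 to 63.3 points and the paternal level higher in all mice at each of the 9.

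**Figure D3:**
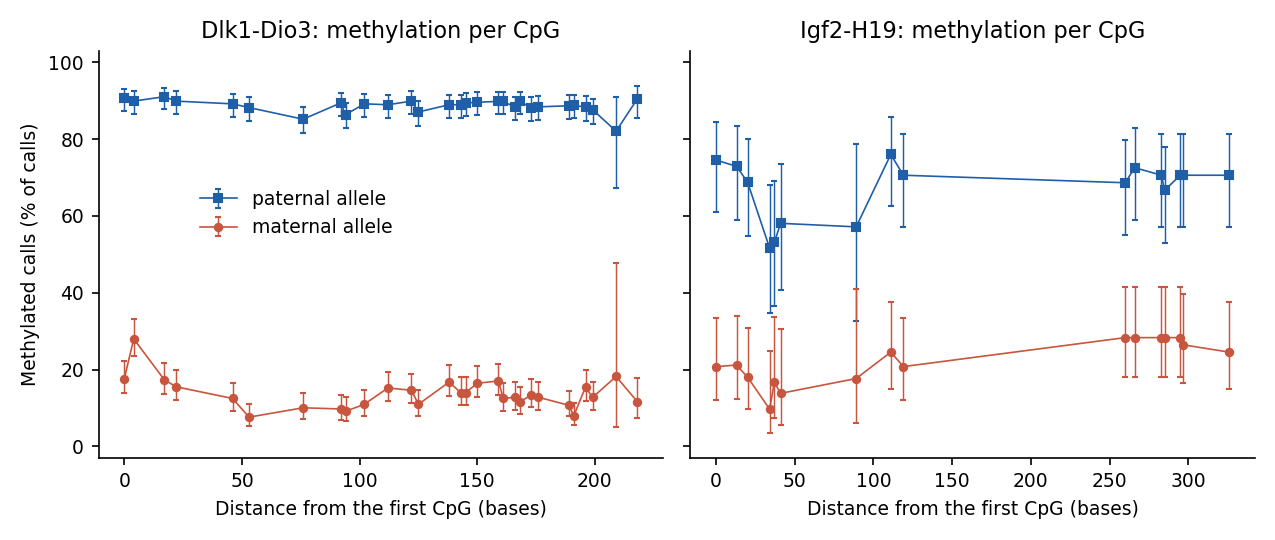
Methylated calls in percent per CpG over all libraries, against the distance in bases from the first CpG, on the paternal (blue squares) and maternal (red circles) allele; bars are 95% Wilson intervals on calls. The second CpG of Dlk1-Dio3 had 27.96% on the maternal allele, and the paternal level is above the maternal one at every CpG of both regions. The intervals of the alleles overlap only at CpG 7 of Igf2-H19, which had 17 maternal and 14 paternal calls.

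Libraries with 1 read on an allele show the state of single molecules. At Igf2-H19 there were 33 such reads, each covering 10 to 16 CpGs, and 31 of them were at least 80% or at most 20% methylated. On the paternal allele 11 of 15 reads were methylated at 80% or more of their CpGs, 2 at 0%, and 2 lay between. On the maternal allele 11 of 18 reads were methylated at no CpG and 7 at 80% or more. None of the 18 maternal reads lay between these levels.

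At Dlk1-Dio3 there were 11 single reads, of which 2 lay between 20 and 80%. On the paternal allele 4 of 5 were at 80% or more and 1 was at 0%. All of these paternal reads but that of mouse 1 came from mouse 8, including the read at 0%. On the maternal allele 3 of 6 were at 80% or more, 1 was at 0%, and 2 lay between. Mouse 8 supplied 4 of the 6 maternal reads. They had 96.6% methylated CpGs in cerebellum, 62.96% in hippocampus and 100% in both nucleus accumbens and hypothalamus, while its 3 lung reads had 15.5%.

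**Figure D4:**
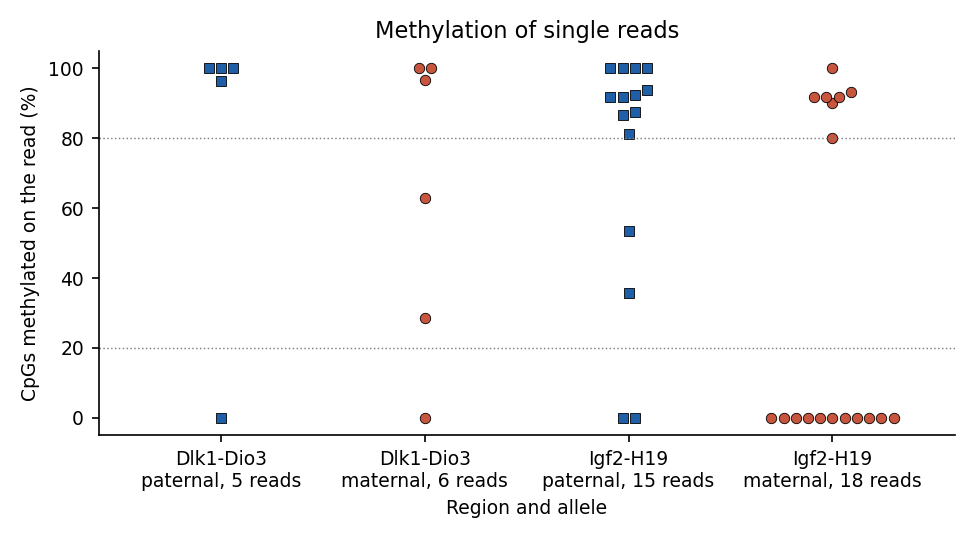
Methylated CpGs, in percent, on each read of libraries that had 1 read on the allele, by region and allele (paternal blue squares, maternal red circles). Dotted lines mark 20 and 80%; 4 of the 44 reads lie between them.

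For age, the paternal Dlk1-Dio3 allele had the largest difference of the 4 region-alleles of both regions. It averaged 91.8% ± 3.81 in old mice and 77.5% ± 11.6 in young mice (SD, n = 4 each), 14.2 points higher in old mice. The old mice spanned 86.7 to 95.9% and the young mice 66.5 to 93.7%, so the groups overlapped through young mouse 6. With the cross as covariate, edgeR's quasi-likelihood test on calls gave an unadjusted p of 0.0316 and an adjusted p of 0.190 over the 24 region-alleles of the table. limma on percent gave an adjusted p of 0.276 and a 95% interval of 1.46 to 27.03 points, not adjusted for multiple tests. The exact permutation p was 0.114.

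This age difference did not pass, and it turned on single mice. Without mouse 6 it was 19.6 points with an edgeR adjusted p of 0.0402, and without mouse 8 it was 10.5 points with 0.410. edgeR called 1 of the 24 region-alleles of the table, or 4.17%, and that was not one of these 4. limma called 0%, with 3 at an unadjusted p below 0.05 against 4 with edgeR and 1 with the exact test. The old mice also had more Dlk1-Dio3 reads on average, as given above, and the part of depth in the difference was not tested.

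The maternal Dlk1-Dio3 allele, which is normally unmethylated, averaged 12.4% ± 2.84 in old mice and 23.8% ± 22.7 in young mice (n = 4 each). The difference of -11.4 points did not pass (edgeR adjusted p = 0.561, limma 95% interval -36.1 to 13.2 points). Without mouse 8 the young mice averaged 12.5% ± 1.64 (n = 3), and the difference was -0.112 points. Igf2-H19 had 74.5% ± 13.2 in old and 69.7% ± 30.4 in young mice on the paternal allele, and 23.4% ± 13.5 in old and 20.9% ± 19.2 in young mice on the maternal allele. These differences of 4.78 and 2.56 points did not pass either (edgeR adjusted p = 0.963 for both), and without mouse 8 they turned to -9.23 and -4.40 points. Their limma 95% intervals of -30.4 to 40.0 and -21.7 to 26.9 points cover changes of either sign, and the edgeR coefficient of paternal Igf2-H19 had the opposite sign to its mean difference.

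The paternal minus maternal difference of Dlk1-Dio3 was 79.4 ± 5.11 points in old and 53.7 ± 31.7 points in young mice. It was 25.7 points larger in old mice, with an exact permutation p of 0.114 (adjusted 0.343), and 10.7 points larger without mouse 8. At Igf2-H19 it was 51.1 ± 18.5 points in old and 48.9 ± 16.3 points in young mice, 2.22 points apart (exact permutation p = 0.886, adjusted 0.886), and -4.83 points apart without mouse 8. Of the 12 regions tested, 0% passed and 2 had an unadjusted p below 0.05. The smallest exact permutation p of 4 against 4 mice is 0.0286, so a few regions at that floor could not pass the adjustment.

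Within single tissues, age could be tested 11 times at Dlk1-Dio3 and 4 times at Igf2-H19. No test passed at these regions or elsewhere in the table (0%), and 11 of all tests had an unadjusted exact permutation p below 0.05. At Dlk1-Dio3 and Igf2-H19 the lowest p was that of paternal Dlk1-Dio3 in the hypothalamus. It was 99.5, 93.3, 98.8 and 95.6% in old mice 1 to 4, and 55.7, 90.1, 89.2 and 50.0% in young mice 5 to 8. All old mice lay above the young mice, by 25.5 points on average, and the exact permutation test gave its smallest possible p of 0.0286 (adjusted 0.351). The lowest young value rests on 2 reads of mouse 8. With at least 5 reads per library 3 tests were left at Dlk1-Dio3 and 0 passed. Paternal hypothalamus, then without mouse 8, was still 18.4 points higher in old mice. Its exact permutation p was again the smallest possible, 0.0286 (adjusted 0.319).

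Across tissues the paternal Dlk1-Dio3 allele was highly methylated in the sums over mice, in which 292 of the 425 reads came from old mice. Summed over the 8 mice it had 94.4% in nucleus accumbens, 90.2% in hypothalamus, 87.1% in prefrontal cortex, 84.9% in hippocampus, 91.5% in cerebellum and 83.8% in lung, on 54 to 93 reads each. All 6 Wilson intervals shared the stretch from 85.4 to 90.9%. Single libraries ran from 0%, on 1 lung read of mouse 8, to 100%. Among libraries with at least 4 reads the lowest were from young mice, on 4 to 7 reads. Mouse 5 had 41.3% in hippocampus, 48.6% in cerebellum and 55.7% in hypothalamus. Mouse 7 had 48.2% in lung and 50% in prefrontal cortex. With mice weighing equally the mean was 95.0% in nucleus accumbens and 71.3% in lung (n = 8), the latter 81.4% without mouse 8.

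The maternal Dlk1-Dio3 allele varied more between tissues. It had 19.5% in nucleus accumbens (58 reads), 21.7% in hypothalamus (68 reads), 6.81% in prefrontal cortex (54 reads), 9.13% in hippocampus (28 reads), 6.44% in cerebellum (44 reads) and 12.3% in lung (77 reads). Without mouse 8 these were 18.2, 20.5, 6.81, 7.16, 4.23 and 12.2%. In these sums, in which mice with more calls weigh more, the cerebellum was the lowest of the 6 tissues and the hypothalamus the highest, with and without mouse 8. With mice weighing equally the mean was 32.4% in nucleus accumbens, 29.2% in hypothalamus and 14.5% in cerebellum (n = 8). It was 7.48% in prefrontal cortex (n = 6, with no read in mice 5 and 8). The cerebellum mean includes 1 read of mouse 8 at 96.6%, so these 2 means cover unlike sets of mice. In the 6 mice read in both, the mean was 7.48% in prefrontal cortex and 2.88% in cerebellum, with prefrontal cortex higher in 5 of 6. The medians without mouse 8 were 17.9% in nucleus accumbens, 21.5% in hypothalamus and 1.80% in cerebellum.

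The pairs of tissues were compared within mice after these levels had been seen. In hypothalamus the maternal allele had 5.84, 30.9, 13.6 and 21.5% in old mice 1 to 4, and 7.67, 23.5, 30.8 and 100% in young mice 5 to 8. In cerebellum it had 2.95, 0, 1.57 and 10.0% in old mice 1 to 4, and 1.80, 0.917, 1.80 and 96.6% in young mice 5 to 8. The values of mouse 8 rest on 1 read in each tissue. Each mouse was higher in the hypothalamus, by 14.8 ± 11.3 points (exact sign-flip p = 0.00781, adjusted 0.109 over 336 tests of the table). In nucleus accumbens each mouse was also higher than in cerebellum, by 17.9 ± 16.7 points (exact sign-flip p = 0.00781, adjusted 0.109). No test of a tissue pair passed in the table (0%), and 56 of the 336 had an unadjusted p below 0.05. As 8 mice cannot give a sign-flip p below 0.00781, no pair could pass unless many others reached that floor too. Without mouse 8 the hypothalamus was 16.4 points above the cerebellum, with an adjusted p of 0.201. At Igf2-H19 each tissue had 4 to 14 reads per allele, summed over mice. The parental difference was 65.0 points in hypothalamus, 56.2 in nucleus accumbens, 54.1 in hippocampus, 50.1 in lung, 16.1 in prefrontal cortex and 6.73 in cerebellum. Cerebellum had 41.8% maternal on 4 reads and 48.5% paternal on 7, or 65.8% paternal without mouse 8. At this region 4 maternal and 2 paternal pairs were tested, and 0 passed.

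**Figure D5:**
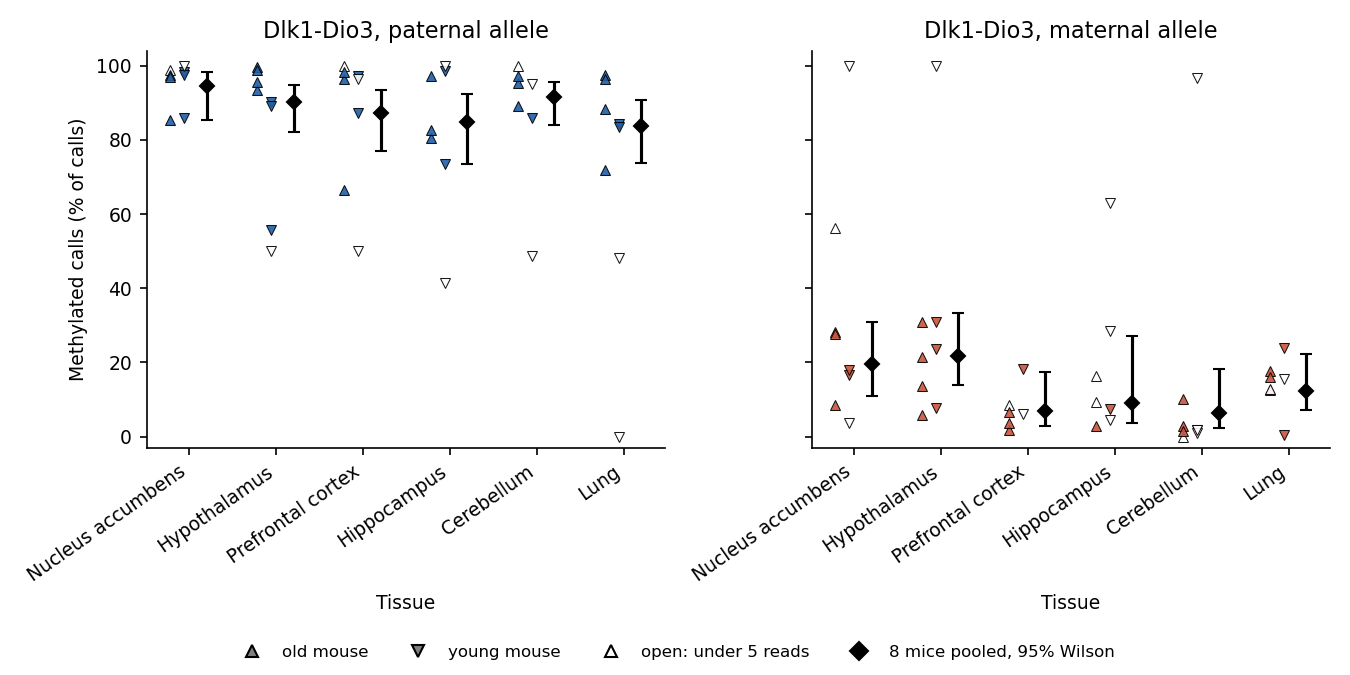
Methylated calls in percent at Dlk1-Dio3 on the paternal (left) and maternal (right) allele by tissue. Triangles are libraries, pointing up for old and down for young mice and open below 5 reads, and black diamonds are the 8 mice pooled with 95% Wilson intervals on reads; pooled maternal levels run from 6.44% in cerebellum to 21.7% in hypothalamus.

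Brain against lung showed no difference that passed at either region. Paternal Dlk1-Dio3 was 90.7, 93.1, 91.7 and 95.8% in the brain areas of old mice 1 to 4, and 70.4, 95.3, 80.2 and 79.9% in those of young mice 5 to 8. In lung it was 71.9, 88.4, 97.5 and 96.3% in old mice 1 to 4, and 84.2, 83.5, 48.2 and 0% in young mice 5 to 8. Brain was higher in 5 of 8 mice, by 15.9 ± 29.6 points (exact sign-flip p = 0.172, adjusted 0.375), and by 6.75 points without mouse 8. Maternal Dlk1-Dio3 had 23.1% ± 29.7 in brain and 14.2% ± 7.11 in lung (SD, n = 7), 8.90 points apart (exact permutation by sign flips, adjusted p = 0.844), and -2.04 points apart without mouse 8.

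Igf2-H19 had 68.7% ± 33.8 in brain and 61.9% ± 33.1 in lung on the paternal allele (SD, n = 7), and 25.3% ± 17.7 in brain and 17.7% ± 34.6 in lung on the maternal allele (n = 8). The exact sign-flip tests gave adjusted p of 0.844 and 0.8125. The paternal difference of 6.80 points was 16.6 points without mouse 8 and -5.95 points without mouse 7. Maternal Igf2-H19 was at 0% in the lung of 6 of 8 mice, on 1 or 2 reads each. The exceptions were old mouse 4 with 50% and young mouse 6 with 91.7%. Of the 24 region-alleles compared between brain and lung, 0% passed and 5 had an unadjusted p below 0.05.

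The reciprocal crosses turn round which strain gives the paternal allele. The paternal allele was of Cast origin in mice with a BL6 mother and of BL6 origin in mice with a Cast mother. At Dlk1-Dio3 it had 80.6% ± 11.3 with a BL6 mother and 88.8% ± 10.6 with a Cast mother (SD, n = 4 each), a difference of -8.18 points (edgeR adjusted p = 0.394, limma 95% interval -21.0 to 4.60 points). Without mouse 8 the difference was -3.48 points. The maternal allele had 25.1% ± 21.8 with a BL6 mother and 11.1% ± 1.25 with a Cast mother, 14.0 points apart (edgeR adjusted p = 0.394) and 3.09 points apart without mouse 8.

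At Igf2-H19 both mean levels were lower with a BL6 mother, and neither difference passed. The paternal allele had 61.5% ± 26.4 with a BL6 mother and 82.7% ± 10.9 with a Cast mother, a difference of -21.2 points (edgeR adjusted p = 0.394) that was -9.94 points without mouse 8. The maternal allele had 14.2% ± 10.4 with a BL6 mother and 30.1% ± 16.7 with a Cast mother (edgeR adjusted p = 0.595). Of the 24 region-alleles, 0% passed for the cross with either tool, with 2 at an unadjusted p below 0.05 in edgeR and 1 in limma. The parental difference was present in both crosses at both regions: in each of the 4 mice with a BL6 mother and each of the 4 with a Cast mother the paternal allele was the more methylated one.

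The share of reads from each allele varied between mice. The paternal share of Dlk1-Dio3 reads was 56.2% ± 7.23 (SD, n = 8), above 50% in 6 of 8 mice (exact sign-flip p = 0.0547, adjusted 0.125 over 12 regions, of which 0% passed). It was 56.3% in mice with a BL6 mother and 55.98% in mice with a Cast mother. It ran from 46.2% in mouse 8 to 66.1% in mouse 7. At Igf2-H19 the share was 46.8% ± 17.3 in the 7 mice with at least 10 reads, from 15.4% in mouse 1 to 73.3% in mouse 2.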

How the data were processed

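The deposited table gives, per CpG, library and genome, the percent of methylated calls and the count of calls behind it. The authors' build was GRCm38 and their tools included Bismark 0.14.4, Trim Galore 0.6.6 and bcl2fastq 2.20, per the submitters' processing notes. The step that split the genomes and any treatment of PCR duplicates are not given in the sources used. BL6 was assumed to be genome 1, on no statement of the labels. The labels list 72 samples; the 24 of lane 7950 were not used here. The old mice are 101 or 103 weeks old in the labels, and the protocol text gives a slightly later range.

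Methylated calls and calls were summed per region, allele and mouse over CpGs and tissues. A value needed 10 calls, a paired test 5 mice and an age test 3 mice per age. Age and cross were fitted together over all 24 region-alleles with edgeR 4.0.16 (quasi-likelihood, on methylated and unmethylated counts) and with limma 3.58.1 on percent (R 4.3.3). Other comparisons used exact two-sided sign-flip or permutation tests over mice. The Benjamini-Hochberg adjustment covered the whole table, except that the reads by age and the comparison with the maternally methylated regions were adjusted over the 2 regions, and 0.05 was the threshold. The 32 CpGs with no region name were left out. Tissues with the same mouse number in the labels come from 1 animal and were paired. Wilson intervals (95%) took reads as their number, with methylated reads rounded to whole reads. The exact tests and the age fits of both tools were run on made data with known answers. The made calls were drawn independently, while real calls share reads, so the made data cannot show how the fits treat shared reads. The paired edgeR fit between the alleles was not run on made data. The members, lists and tests were chosen with earlier results of these data known. The comparison of tissue pairs, that with the maternally methylated regions, the paternal share of reads and the minimum of 5 reads were added after seeing the data. Both regions are described in every comparison, Igf2-H19 more briefly by tissue. Their CpGs are described one by one or as ranges in the comparison of the alleles. Other regions are named only as the yardstick.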

Additional observations from a re-analysis of the deposited data

Results flagged for a closer look

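A gap test was run in 24 groups of 4 libraries, and in the groups of 4 old or 4 young mice. In it 9 values stood apart from the other 3 of their group. The test flags about 1 in 20 groups by chance when values are normally distributed. Percents on 1 or 2 reads are not, so the count of flags cannot be set against that rate. On the maternal allele of Dlk1-Dio3, young mouse 8 had 57.7% against 10.7 to 13.9% in the other young mice. Its single read in cerebellum had 96.6% and its single read in nucleus accumbens 100%. The same animal had the smallest parental difference in 6 of 7 maternally methylated regions. The part of its low depth, with a median of 16171 calls per library, was not tested. On the paternal allele of Dlk1-Dio3, old mouse 4 had 85.4% in nucleus accumbens on 8 reads, and old mouse 3 had 66.4% in prefrontal cortex on 12 reads.

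At maternal Igf2-H19, old mouse 4 had 50% in lung and old mouse 1 had 40.7% in nucleus accumbens, on 2 reads each. Young mouse 6 had 91.7% in lung on 1 read, and young mouse 5 had 89.3% in prefrontal cortex on 2 reads. In each of these groups the other libraries all had 0%, so any value above 0% would have been flagged.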

How the results depend on the processing

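The paternal minus maternal difference of Dlk1-Dio3 passed under all 18 alternatives run, and that of Igf2-H19 under all but the minimum of 5 reads (52.8 points, 5 mice). Without 1 mouse, paternal Dlk1-Dio3 differed between the ages by 10.5 to 19.6 points, and passed only without mouse 6. The age difference of paternal Igf2-H19 was -0.936 points at a minimum of 50 calls or of 5 reads, and -9.23 to 12.5 points without 1 mouse. That of maternal Igf2-H19 was -4.40 points at 50 calls, -2.80 points at 5 reads, and -4.40 to 10.8 points without 1 mouse. The age difference of the parental difference at Igf2-H19 was -10.2 points at 50 calls, -3.78 points without the prefrontal cortex library of mouse 5, -1.63 points in the brain areas alone, and -4.83 to 9.20 points without 1 mouse. Brain minus lung at maternal Dlk1-Dio3 was -2.04 points at 5 reads and -2.04 to 12.7 points without 1 mouse, and at paternal Igf2-H19 -5.95 to 16.6 points without 1 mouse. None of these passed in any of these settings, apart from the stated one, and the cause of the sign changes was not tested. At 5 calls, 0 CpGs of Igf2-H19 passed in place of 14, since 5 mice had values. With no replicate block, brain minus lung was 15.9 points at paternal and 7.76 points at maternal Dlk1-Dio3, and 9.68 and 7.63 points at paternal and maternal Igf2-H19. The replicate block changed no call. The comparison of the lanes was not run, since columns of 1 lane were used.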
